A study of Mus musculus with 2931 samples.

Results

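Proliferative endothelial cells (Proliferative EC) were one of 10 endothelial subtypes that the submitters labelled among single cells of the mouse distal lung. The members are all cells with that label, and they numbered 390 of 2931 cells. The lungs came from late fetuses (E18.5) and from mice 1 (P1), 7 (P7) or 21 days (P21) after birth, all kept in normal air, and from P7 pups kept in hyperoxia, whose oxygen level and length are not given in the labels. Each of the 5 groups had 1 female and 1 male mouse name, and the labels give no strain, mutation or transgene and leave unsaid if several animals were pooled under a name. Cells were sorted into plates, nearly all through a gate on the endothelial surface protein CD31, and each well gave 1 library made with a Tn5 transposase protocol. The Proliferative EC numbered 122 and 84 in the female and male E18.5 mice, 13 and 9 at P1, 55 and 34 at P7, 0 and 7 at P21, and 36 and 30 under P7 hyperoxia. The subtype labels rest on clustering of the same counts, so the contrast of these cells with other subtypes is described here without a test.

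A dividing cell copies its DNA in S phase, prepares for division in G2 and separates its chromosomes in mitosis (M). Cyclins and cyclin-dependent kinases (CDKs) drive the passage from each phase to the next, CDK inhibitors hold it back, and many genes used in G2 and mitosis are transcribed mainly then, under repressive and activating complexes that contact short promoter elements. In the lung, capillary endothelium multiplies before and after birth while the gas exchange surface is built. General capillary cells and Car4+ capillary cells, also called aerocytes, are its main capillary types.

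The 3 genes that mark the label are all used late in the cycle: Mki67 encodes the Ki-67 protein that coats mitotic chromosomes, Top2a encodes the topoisomerase that untangles DNA, and Cdk1 encodes the kinase that starts mitosis. On GRCm38 Mki67 lies at chr7:135689784-135716361, Top2a at chr11:98992943-99024189 and Cdk1 at chr10:69335146-69352938, all protein-coding genes on the minus strand in GENCODE M21. Their promoters are shown because these 3 genes define the label. Each window runs from 250 bases before to 50 bases after the start in RefSeq on GRCm38.p6, at chr7:135716330-135716629, chr11:99024140-99024439 and chr10:69352863-69353162, is written 5′ to 3′ along the gene, and has in capitals the cell cycle homology element TTTGAA and the box CCAAT, on either strand (TTCAAA and ATTGG on the other).
Mki67: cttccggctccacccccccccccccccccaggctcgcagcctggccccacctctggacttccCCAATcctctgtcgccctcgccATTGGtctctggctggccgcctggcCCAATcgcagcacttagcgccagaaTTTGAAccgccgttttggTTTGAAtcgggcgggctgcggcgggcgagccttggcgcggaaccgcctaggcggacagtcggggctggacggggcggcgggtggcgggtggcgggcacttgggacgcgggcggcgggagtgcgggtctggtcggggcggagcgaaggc
Top2a: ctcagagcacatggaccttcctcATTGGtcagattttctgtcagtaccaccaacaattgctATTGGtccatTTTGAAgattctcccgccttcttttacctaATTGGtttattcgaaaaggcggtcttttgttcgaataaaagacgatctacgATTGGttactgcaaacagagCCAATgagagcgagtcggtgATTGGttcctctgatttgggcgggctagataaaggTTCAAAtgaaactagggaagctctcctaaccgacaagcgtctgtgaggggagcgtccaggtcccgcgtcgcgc
Cdk1: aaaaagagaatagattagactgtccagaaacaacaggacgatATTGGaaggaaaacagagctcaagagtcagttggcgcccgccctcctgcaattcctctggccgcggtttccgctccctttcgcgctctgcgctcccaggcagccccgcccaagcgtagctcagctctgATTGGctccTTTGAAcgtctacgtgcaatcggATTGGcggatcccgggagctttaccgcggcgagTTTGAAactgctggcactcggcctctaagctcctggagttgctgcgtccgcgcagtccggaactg
The Mki67 window held 2 matches to TTTGAA and 3 to CCAAT, the Top2a window 2 and 6, and the Cdk1 window 2 and 3, and no match of one motif overlapped one of the other. Of the 52 genes of a G2/M list used further on, 46 had a promoter in the RefSeq table. TTTGAA was in 32 of those 46 windows (69.6%), CCAAT in 35 (76.1%) and both in 26 (56.5%), while of all 27025 RefSeq promoters 4893 (18.1%) held TTTGAA, 37.9% held CCAAT and 7.12% held both. One more motif searched on both strands, the E2F-type GGCGGGAA (TTCCCGCC on the other), was in 0 of the 46 windows and in 2.24% of all promoters. In the 29 windows matched for a 41-gene S phase list that motif was in 7 (24.1%), TTTGAA in 5 (17.2%) and CCAAT in 20 (69.0%). A high share of CCAAT was thus not particular to the G2/M list. These matches describe letters only, and binding was not measured.

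The values are read counts per gene with no molecular identifiers, so reads copied from 1 molecule count separately and binomial intervals cover counting error only. Median depth of the Proliferative EC ran from 183457 reads per cell in the male P7 mouse to 1228243 in the male P1 mouse, and their summed reads from 3438099 in the male P21 mouse to 98545597 in the female E18.5 mouse. Levels are given as CPM, counts per 1000000 of the reads summed over a mouse's cells, which are not corrected for gene length, so a gene is compared only with itself. Sequencing run followed the mouse: the CD31-gate cells of the female E18.5, P1 and P21 mice shared 1 run, those of the male E18.5, P7, P21 and hyperoxia mice another, and the remaining 3 mice had a run each. The CD31-gate cells of P7 and P1 had no run in common, so age and run cannot be told apart there. Through a mesenchymal gate 10 cells of the male P7 mouse, 1 of them Proliferative EC, came from the run of the male P1 mouse. Marker genes of other lineages were low in most mice: 9 of the 390 cells carried over 1000 CPM summed over the erythroid, immune, mesenchymal and epithelial lists, and the summed erythroid level of the Proliferative EC was 318 CPM in the male E18.5 mouse against 0 to 22.5 CPM in the others, and the summed mesenchymal level of the Proliferative EC was 306, 272 and 900 CPM in the male P1, P7 and P21 mice against 0.843 to 24.2 CPM in the others. No doublet caller was run. With 2 mice a group, every p-value below measures the spread between these mouse names.

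The label was checked against its markers. After each cell was thinned to 50000 reads, so that depth was equal, 92.6% of the Proliferative EC had a read of Mki67, 93.1% of Top2a and 85.6% of Cdk1. In the order female then male at E18.5, P1, P7 and P7 hyperoxia, Mki67 stood at 2226, 784, 1416, 792, 668, 496, 776 and 866 CPM. The same mice had 42.8, 32.0, 0.717, 7.06, 13.9, 10.3, 15.2 and 13.7 CPM in their noncycling cells of the same kind, here the labels Nonproliferative embryonic EC, Early Car4- capillaries and Late Car4- capillaries together (1776 cells). In each mouse the Proliferative EC were higher than the noncycling cells, and the 2 ranges did not overlap. Top2a was at 906 to 2431 CPM in the Proliferative EC and at 3.97 to 71.4 CPM in the noncycling cells, and Cdk1 at 839 to 1313 CPM against 24.3 to 118 CPM. The 7 cells of the male P21 mouse had 725 CPM of Mki67, 1700 of Top2a and 1599 of Cdk1, within the range of the younger mice or above it for Cdk1. Endothelial identity was kept: 383 of the 390 cells had a read of at least 6 of the 10 pan-endothelial genes, among them Pecam1, which encodes CD31, and Cdh5, the cadherin of endothelial junctions.

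The share of Proliferative EC was highest before birth, low just after it and higher again at P7. Among CD31-gate cells it was 40.5% in the female and 28.4% in the male at E18.5, with exact 95% intervals of 34.9 to 46.4% and 23.3 to 34.0%. It was 4.13% (2.22 to 6.95%) and 3.88% (1.79 to 7.24%) at P1. At P7 it was 15.6% (11.8 to 20.1%) and 16.5% (11.6 to 22.4%). At P21 the female had 0 of 282 cells (0 to 1.30%), and the male 2.52% (0.931 to 5.41%). The means were 34.5% ± 8.57, 4.00% ± 0.175, 16.1% ± 0.619 and 1.26% ± 1.78 (SD, n = 2 mice each), and no age overlapped another. The intervals of the male P21 mouse and of both P1 mice did overlap, so P1 and P21 are the neighbours in this order that counting error does not separate. The exact permutation test over the 8 mice gave p = 0.00952, the smallest its 2520 assignments allow, and 0.00952 to 0.0190 with each mouse left out in turn. Within a shared run the female P1 mouse (4.13%) was below the female E18.5 mouse (40.5%), and the male P7 mouse (16.5%) was below the male E18.5 mouse (28.4%). A share of sorted cells cannot tell more cycling cells from fewer other cells.

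Under hyperoxia the share was 12.8% in the female and 11.8% in the male, against 15.6% and 16.5% at P7 in normal air. Both hyperoxia mice were lower, by 3.74 percentage points between the means of 12.3% ± 0.721 and 16.1% ± 0.619. The exact permutation test gave p = 0.333, the smallest that 2 mice against 2 allow. The difference turned on the label. All 10 cells labelled Proliferative venous EC came from the hyperoxia mice, and counting them brought the hyperoxia mean to 14.2%. Counting instead the cells of any label with a read of at least 2 of the 3 markers gave 21.1% and 18.9% under hyperoxia and 16.9% and 22.3% at P7, which overlapped. The cells from hyperoxia also differ from the rest in that their 528 labels carry no UMAP coordinates.

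**Figure D1:**
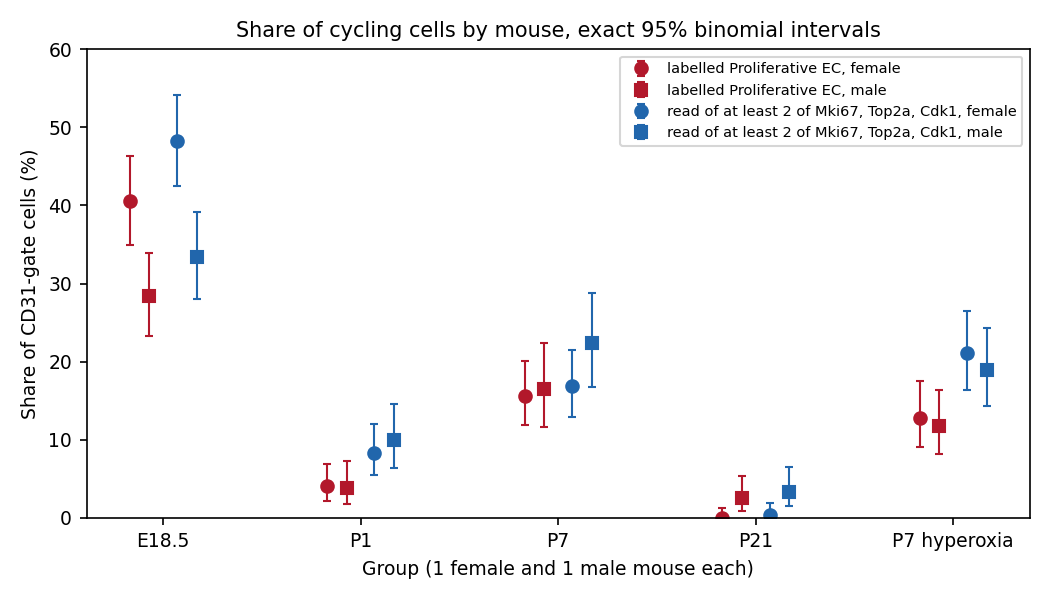
Share of Proliferative EC among CD31-gate cells (vertical axis, %) by group (horizontal axis), 1 point a mouse with its exact 95% binomial interval. By label the E18.5 mice stand at 40.5% and 28.4%, the P1 and P21 mice under 5%, and the P7 mice in normal air and hyperoxia between 11.8% and 16.5%. By markers the P1 mice stand at 8.33% and 9.96%, and the P7 mice in normal air and hyperoxia between 16.9% and 22.3%.

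Within each mouse the Proliferative EC were set against the noncycling cells as a log2 ratio of CPM, with 1 CPM added to both. Of 17840 genes, 260 (1.46%) were at least 2-fold higher in all 8 mice with 8 or more Proliferative EC, and 6 (0.0336%) were at least 2-fold lower in all. The median ratio over all genes was -0.02. Since the label was made from these counts, the counts by pathway describe what the cells carry and are not evidence for it.

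Genes of the mitotic machinery formed the clearest block. All 10 kinetochore genes were 2-fold higher in all 8 mice, with a median log2 ratio of 5.27. Cenpa, the histone H3 variant that marks centromeres, averaged 940 CPM against 27.8 CPM, and Cenpf, a kinetochore protein of late G2, 813 against 10.6 CPM. All 12 spindle genes met the same bound, with a median of 5.51, among them Tpx2, a spindle assembly factor that activates Aurora A, at 419 against 7.45 CPM. So did all 8 cytokinesis genes, with a median of 5.41, among them Birc5, the survivin subunit of the chromosomal passenger complex, at 1004 against 19.7 CPM. Of the 10 mitotic kinases and checkpoint genes 8 did, with a median of 5.08. Plk1, the polo-like kinase of mitotic entry, had a median ratio of 6.49 and Aurka, the Aurora A kinase, 5.85. The remaining pair were Wee1, the kinase that restrains CDK1, at 1.71, and Nek2, a centrosome kinase, at 0.56. Ube2c, which passes ubiquitin to cyclin B on the anaphase-promoting complex, had the largest ratio among the listed genes quoted here, 8.31, at 1257 against 3.47 CPM.

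Genes of DNA replication were higher less uniformly. Of 12 DNA synthesis genes 7 were 2-fold higher in all 8 mice, with a median of 2.16. Rrm2, the regulated subunit of ribonucleotide reductase, averaged 588 against 33.9 CPM, and Tk1, thymidine kinase, 489 against 28.4 CPM. Pcna, the sliding clamp of DNA polymerase, was higher in all 8 mice but 2-fold in 5, at 317 against 121 CPM. Only 3 of 12 licensing genes met the bound, Gmnn, Cdc45 and Dbf4, of which Gmnn encodes geminin, the inhibitor of licensing. The helicase subunit Mcm3 was higher in all 8 mice, at 193 against 117 CPM, and 2-fold in 1. Orc1, of the origin recognition complex, was low in both, at 3.44 and 2.88 CPM. Chromatin genes met it in 9 of 11: Hmgb2, a chromatin protein of cycling cells, averaged 828 against 81.8 CPM and had a read in 99.7% of cells.

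The cyclins quoted here split by the phase they serve. Of the 12 cyclin and CDK genes 8 were higher in all 8 mice, among them Ccne1, Ccne2 and Cdk2, which were not 2-fold higher in all. Ccnb1 (cyclin B1), Ccnb2 (cyclin B2), Ccna2 (cyclin A2) and Ccnf (cyclin F), which act from S phase to mitosis, had median log2 ratios of 6.92, 5.20, 5.61 and 6.34 and were the 4 of 12 cyclin and CDK genes that were 2-fold higher in all 8 mice. The D-type cyclins, which act early in G1, ran the other way: Ccnd1 had a ratio of -0.55, Ccnd2 -1.78 and Ccnd3 -0.42. Ccnd2 was at 48.9, 32.6, 181, 340, 85.1, 191, 279 and 135 CPM in the Proliferative EC, in the mouse order given for Mki67. The noncycling cells of the same mice had 241, 180, 266, 259, 310, 354, 915 and 1053 CPM, so Ccnd2 was higher in the cycling cells of the male P1 mouse alone. The partner kinases of cyclin D had ratios of 0.20 for Cdk4 and -0.30 for Cdk6.

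Some CDK inhibitors were high in the cycling cells. Cdkn2c (p18) averaged 134 against 4.31 CPM and Cdkn2d (p19), both inhibitors of CDK4 and CDK6, had a median ratio of 2.63, and each was 2-fold higher in all 8 mice. Cdkn1a (p21) was higher in 6 of 8 mice, with a median ratio of 0.54. Among transcription factors of the cycle, Foxm1, which drives G2/M genes, had a ratio of 5.28, and E2f8, a repressor of the E2F family, 5.00. Myc, a growth regulator, was at -0.73 and was higher in 2 of 8 mice.

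Outside these lists, 9 of the 10 genes with the largest ratios past the level filters are given here, and several are known for a role in division. Aspm, a spindle pole protein, had a median ratio of 6.90 and averaged 211 CPM against 1.38 CPM over the 8 mice. The others were Iqgap3 at 6.69, Mxd3, a relative of the Myc antagonist Mad, at 6.59, Arhgef39 at 6.48, Pimreg at 6.25, the noncoding RNA Lockd at 6.19, Cip2a, an inhibitor of a phosphatase, at 6.06, the histone gene Hist1h2ae at 5.94 and Troap at 5.92. Hist1h2ae has near-identical copies between which reads cannot be assigned with certainty. Of the 6 genes 2-fold lower in all mice, 5 (Ndrg1, Tcp11l2, Rffl, Fam214a and Smkr-ps, all under the level filter for named genes and given since the count is small) averaged 6.26 to 25.6 CPM in the noncycling cells, and 0 genes were 2-fold lower with 10 CPM added in place of 1. Without a bound on size 587 genes (3.29%) were lower in all 8 mice, 317 of them past the level filters. Among them were the glycolytic enzyme Aldoa, at 253 against 568 CPM, and Mxd4, a Myc antagonist, at 165 against 372 CPM, both chosen after their values were seen.

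**Figure D2:**
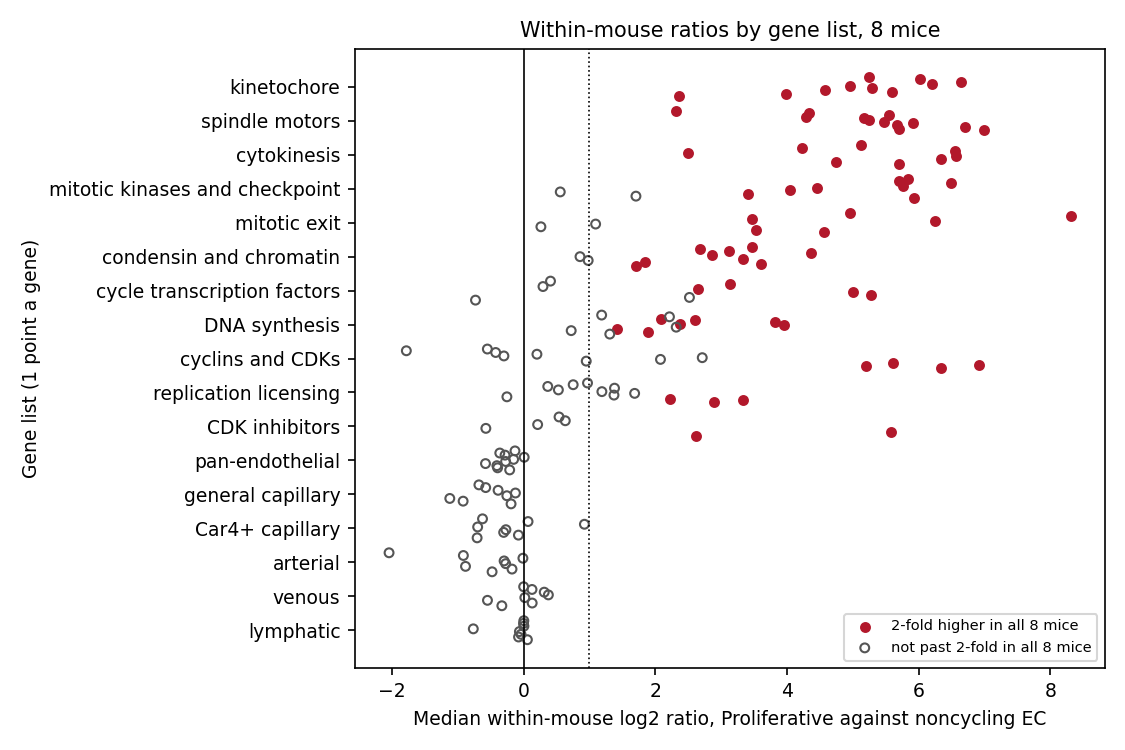
Median within-mouse log2 ratio of CPM, Proliferative EC over noncycling cells (horizontal axis), for each gene of each list (vertical axis), 8 mice. Kinetochore, spindle and cytokinesis genes lie far to the right, with list medians from 5.27 to 5.51, while the vessel lists lie near 0.

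The cells with this label were spread over the cycle, and most carried a late program. For each cell at 50000 reads the share of 41 S phase genes and of 52 G2/M genes with a read was taken, and the median cell had 43.9% of the S genes and 71.2% of the G2/M genes. A cell was called low in both where neither share passed the 95th percentile of noncycling cells (46.3% of S genes, 25% of G2/M genes). On that rule 8 cells (2.05%) were low in both, 87 (22.3%) carried relatively more S genes and 295 (75.6%) more G2/M genes, with 32 cells within 5 points of the border. These are ranges of a score and not cell types. The G2/M list includes Mki67, Top2a and Cdk1, which mark the label, so the lean to G2/M is not independent of the label. Other labels also held cells leaning to S: 60 against 5 leaning to G2/M in Early Car4- capillaries, and 28 against 6 in Nonproliferative embryonic EC. In Lymphatic EC the numbers were 13 and 16 of 82 cells, and in Car4+ capillaries 0 and 1 of 332. The cells leaning to S made up 23.8% and 21.4% at E18.5, 46.2% (6 of 13) and 22.2% at P1, 18.2% and 29.4% at P7, and 22.2% and 13.3% under hyperoxia. The groups overlapped, and at P21 0 of 7 cells leaned to S.

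**Figure D3:**
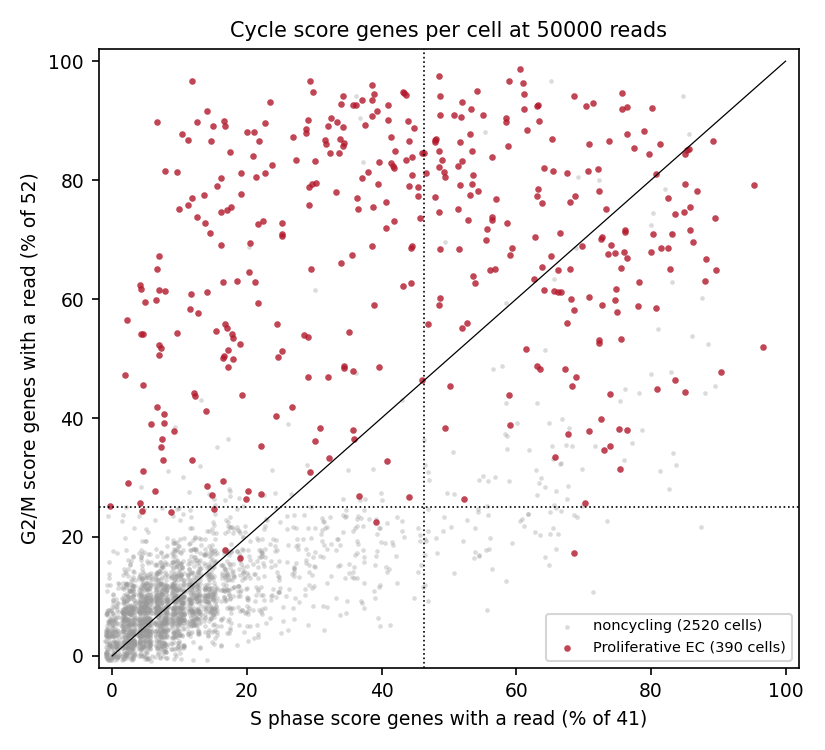
Share of 52 G2/M genes with a read (vertical axis, %) against the share of 41 S phase genes with a read (horizontal axis, %) per cell at 50000 reads, for Proliferative EC and noncycling cells. Most Proliferative EC stand at high G2/M shares that few noncycling cells reach.

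Among the vessel lists, that of general capillaries had the most members with a read in the cycling cells. At 50000 reads, 87.2% of the 390 cells had a read of Gpihbp1, which holds lipoprotein lipase on the capillary wall, 90.8% of Plvap, of the fenestral diaphragm, 74.9% of Kit, a receptor tyrosine kinase, and 63.1% of Aplnr, the apelin receptor. Not every member of the list was as common: Sema3c, Lpl and Glp1r each had a read in fewer cells than Aplnr. At least 5 of the 8 general capillary genes had a read in 270 cells. The corresponding number was 30 cells for the Car4+ capillary list, 29 for the arterial, 14 for the venous and 0 for the lymphatic list. At least 5 of the general capillary genes also had a read in 716 of 837 Early Car4- capillaries. So they did in 79 of 201 Venous EC and 32 of 93 Arterial EC I, and the list is not confined to capillaries. Summed over the list, general capillary genes stood at 3791 and 4773 CPM at E18.5, 5814 and 6311 at P1, 5012 and 5572 at P7 and 5082 and 6417 under hyperoxia. In each mouse this was below its noncycling cells, which held 4751 to 8411 CPM.

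Several markers of the other vessel types were rare, while other members of the same lists were common. Car4, the carbonic anhydrase that names the aerocyte, had a read in 16.9% of the cells, against 98.2% of Car4+ capillaries and 26.6% of Early Car4- capillaries. Gja5, the arterial connexin 40, was in 3.08% against 75.3% of Arterial EC I. The venous genes Vwf, von Willebrand factor, and Car8 were in 10.3% and 7.95%, against 99.0% and 92.0% of Venous EC. Prox1, the regulator of lymphatic identity, was in 0.769%, and Ccl21a, a lymphatic chemokine, and Pdpn, podoplanin, in 0 cells at this depth. The absence of reads sets no limit on cells that express them. At full depth Ccl21a had 2 reads in the male P7 mouse and Pdpn 1 read in each P7 mouse. Members of these lists that general capillaries also use were common, among them Lyve1, a hyaluronan receptor listed as lymphatic, in 90.0%, Sox17, a transcription factor listed as arterial, in 76.2%, and Ednrb, an endothelin receptor of the Car4+ list, in 51.5%. In the venous list Ephb4 and Nr2f2 were not rare. Of the 210 cells nearest to Nonproliferative embryonic EC in the comparison below, 122 had a read of Ephb4 and 62 of Nr2f2. Of the 149 nearest to Early Car4- capillaries 103 and 40 did. Flt4, listed as lymphatic, was in 151 and 95 of these cells, and Efnb2, listed as arterial, in 95 and 95.

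**Figure D4:**
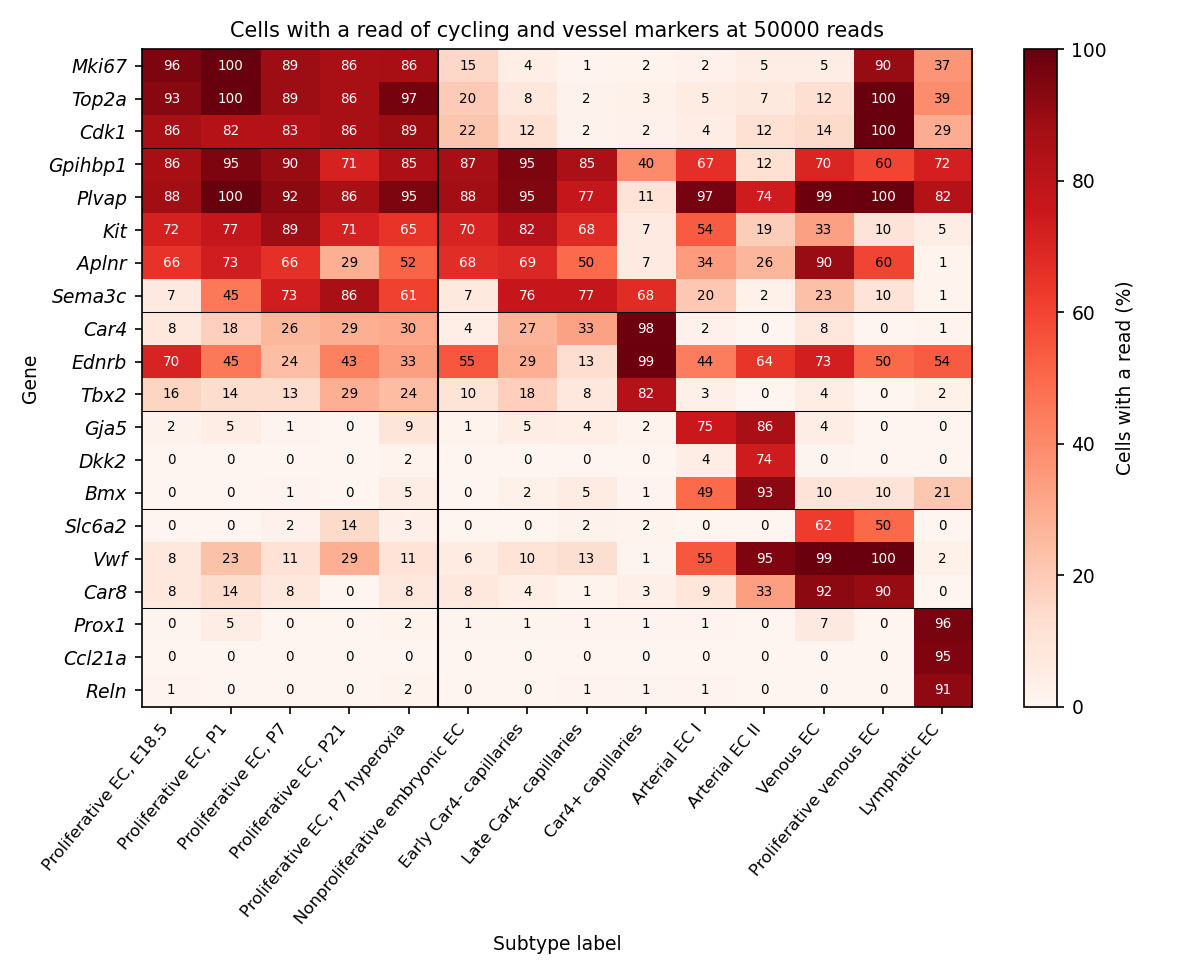
Percentage of cells with a read at 50000 reads (colour) for cycling and vessel markers (vertical axis) in each subtype label (horizontal axis). Proliferative EC pair high Mki67, Top2a and Cdk1 with Gpihbp1 in 87.2% of cells, while Gja5, Prox1 and Slc6a2 are each under 5%.

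Each cell was also compared with the average profile of each noncycling subtype. Profiles were taken over the 500 genes that vary most between noncycling subtypes, with the cycle lists left out and the cell's own mouse excluded. Of the 390 cells, 210 (53.8%) were nearest to Nonproliferative embryonic EC, 149 (38.2%) to Early Car4- capillaries, 5 to Late Car4- capillaries, 10 to Car4+ capillaries, 9 to Venous EC, 7 to Arterial EC I and 0 to Lymphatic EC or Arterial EC II. The embryonic and Car4- capillary labels thus took 364 cells (93.3%), and 88.2% on the vessel marker lists alone. The cells are pooled over mice and are not independent, so no interval is given. Noncycling cells recovered their own label in 89.3% of 2531 cells, and the 10 Proliferative venous EC were all nearest to Venous EC. The nearest label followed age: 115 of 122 and 84 of 84 cells at E18.5 were nearest to the embryonic label, and 49 of 55 and 31 of 34 at P7 to Early Car4- capillaries. At P1 9 of 13 and 4 of 9 cells were nearest to Early Car4- capillaries, and under hyperoxia 27 of 36 and 24 of 30. At E18.5 the embryonic label and the age cannot be told apart.

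The few cells nearest to another vessel type carried some of its markers. Vessel markers were not left out of the genes used for the assignment, so this describes it and is no separate check. Of the 10 nearest to Car4+ capillaries 8 had a read of Car4, of the 9 nearest to Venous EC 8 had Vwf and 4 had Slc6a2, a noradrenaline transporter of lung veins, and of the 7 nearest to Arterial EC I 4 had Gja5. Of the 9, 3 came from the hyperoxia mice and 2 from the male P21 mouse. Hyperoxia held 5 of the 7 nearest to Arterial EC I.

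Reads and detected genes per cell were compared with those of the noncycling cells. The median reads per cell of the Proliferative EC exceeded those of the noncycling cells in 6 of 8 mice, by a mean log2 ratio of 0.16 ± 0.22 (SD, n = 8, exact sign-flip permutation p = 0.0313, 2-sided). The difference shrank to 0.09 (exact permutation p = 0.273) against all noncycling subtypes, and 6 of the 8 fits that left out a mouse gave p = 0.0625. At equal depth more genes were seen in the cycling cells of all 8 mice, for example 3017 against 2502 in the female E18.5 mouse, 2900 against 2041 in the female P7 mouse and 3649 against 3236 in the male P7 mouse. The mean log2 ratio of genes per cell was 0.36 ± 0.11 (SD, n = 8), given without a test since the label rests on the same counts.

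Between E18.5 and P7 the cycling cells gained Hpgd, Tmem100, H2-K1, Sgk1 and Ecm1 and lost Clca3a1. Reads were summed over the Proliferative EC of each mouse and tested with edgeR's quasi-likelihood test, all 8 mice in 1 model, over 13102 genes with Benjamini-Hochberg adjustment. At an adjusted p under 0.05, 6 genes were called (0.0458% of the genes tested), of which 5 rose (0.0382%) and 1 fell (0.00763%), with 688 (5.25%) at an unadjusted p under 0.05. The male P7 and E18.5 mice shared a run, and in the pairs of values below the male is the second. All 4 erythroid genes tested were lower at P7 with an unadjusted p under 0.05 and none was called, and their part in the result was not tested.

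Hpgd, the dehydrogenase that inactivates prostaglandins (chr8:56294585-56321043, plus strand), was at 2311 and 1516 CPM in the female and male at P7 and at 21.5 and 11.4 CPM at E18.5. The mice did not overlap, and Hpgd rose by 6.83 ± 0.67 on the log2 scale (SE, edgeR quasi-likelihood adjusted p = 0.00858). At P1 it was at 300 and 131 CPM, between both ages. Tmem100, a membrane protein of the BMP and ALK1 pathway (chr11:90030348-90036508, plus strand), was at 3074 and 2333 CPM against 158 and 101 CPM. It rose by 4.34 ± 0.50 (edgeR quasi-likelihood adjusted p = 0.0133). Again P1 lay between, at 1383 and 817 CPM.

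H2-K1, a class I histocompatibility heavy chain (chr17:33996017-34000347, minus strand), was at 900 and 918 CPM against 54.9 and 53.5 CPM, and rose by 4.01 ± 0.46 (edgeR quasi-likelihood adjusted p = 0.0133). Its sequence is shared in part with other class I genes, so some of its reads may belong to them. Sgk1, a kinase that regulates ion transport and is induced by glucocorticoids (chr10:21882184-21999903, plus strand), was at 1595 and 1015 CPM against 71.3 and 82.6 CPM, with a log2 change of 4.03 ± 0.54 (edgeR quasi-likelihood adjusted p = 0.0424). Ecm1, an extracellular matrix protein (chr3:95734147-95739569, minus strand), was at 188 and 169 CPM against 19.6 and 17.6 CPM, with 3.21 ± 0.45 (edgeR quasi-likelihood adjusted p = 0.0456). None of these groups overlapped.

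Clca3a1, a member of the calcium-activated chloride channel regulator family (chr3:144729677-144760977, minus strand), fell (edgeR quasi-likelihood adjusted p = 0.0456). It had 1 read in the female and 0 in the male at P7, against 9008 and 3989 reads (91.4 and 59.0 CPM) at E18.5. The pooled ratio was 5450-fold lower, with a counting interval of 978 to 215265. P1 kept 19.6 and 60.1 CPM. It has a close paralog, so its reads may be shared.

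These 6 calls rest on few mice. Leaving out the E18.5 female left 1 call and the E18.5 male 0, while leaving out the P1 female or male, which are in the model but not in the contrast, gave 87 and 92. Removing the 9 cells rich in markers of other lineages left 3 calls (H2-K1, Sgk1 and Tmem100), with Hpgd at an adjusted p of 0.0526 in the same edgeR test. DESeq2 called 198 genes and limma on mean CPM 4.

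**Figure D5:**
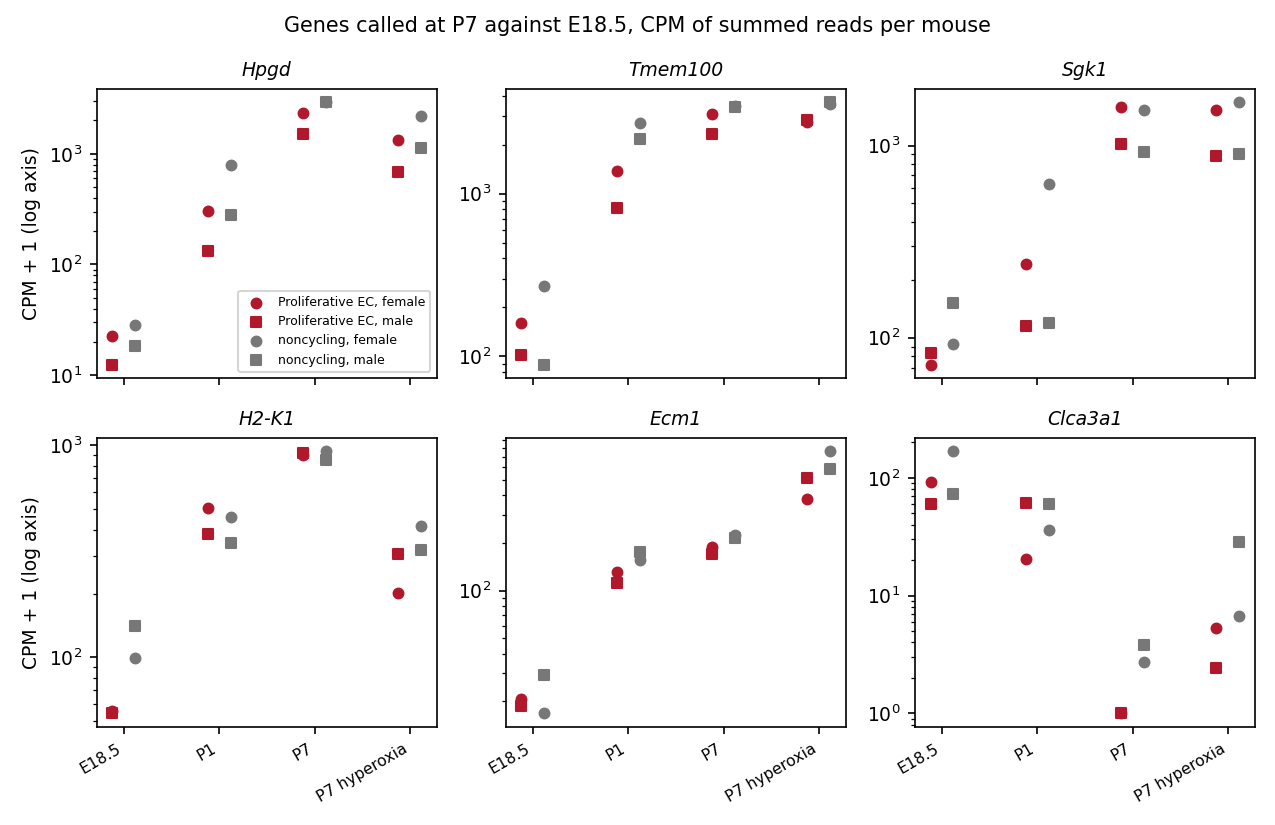
CPM of reads summed per mouse over Proliferative EC and over noncycling cells (vertical axis, log scale) by group (horizontal axis) for the 6 genes called at P7 against E18.5. In the Proliferative EC the 5 genes that rose stand between both ages at P1, and Clca3a1 is at or near 0 reads at P7.

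The noncycling cells of the same mice held these genes too. Hpgd was at 2910 and 2928 CPM at P7 and 27.6 and 17.5 CPM at E18.5 in the noncycling cells, and Tmem100 at 3445 and 3410 against 269 and 87.6 CPM. The test of whether the age difference differed between cycling and noncycling cells, an interaction in edgeR's quasi-likelihood model over 15178 genes with 1 term for each mouse, called 0 genes, with 275 (1.81%) under 0.05 before adjustment. DESeq2 called 53 and limma 0. The interaction was 1.10 on the log2 scale for H2-K1 and -6.43 for Clca3a1, whose noncycling cells kept 1.76 and 2.80 CPM at P7, and neither passed the adjustment.

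No vessel or growth list had a called member at P7 against E18.5, and their values are given as a description. The median log2 difference over all genes was -0.08. General capillary genes were higher in 7 of 8, with a median of 0.80, and Car4+ capillary genes in 6 of 8, with a median of 1.65. Sema3c, a guidance ligand of the general capillary, was at 262 and 406 CPM at P7 and 9.80 and 2.87 CPM at E18.5, and 73.0% and 6.80% of cells had a read. Car4 was at 74.2 and 488 CPM against 24.4 and 13.6 CPM, and Ednrb at 58.2 and 224 against 374 and 402 CPM. The mice of the 2 ages did not overlap for these 3 genes. The share of all genes without overlap was not counted, so this is no further support. Of 9 imprinted growth genes tested, 7 were lower, with a median of -0.95. Grb10, an adaptor that restrains insulin signalling, was at 100 and 133 CPM against 585 and 417 CPM. Among genes with the smallest p that were not called, Nrp2, a neuropilin receptor for semaphorins and VEGF-C, was at 1.84 and 1.34 CPM against 95.2 and 77.6 CPM, and Lamb1, a laminin chain, at 15.5 and 47.0 against 251 and 213 CPM.

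No gene of the cycle lists was called between these ages. Of 52 G2/M genes 21 were higher at P7, with a median of -0.16, and of 41 S phase genes 21, with a median of 0.02. None was called, and 3 of the 93 had an unadjusted p under 0.05 in edgeR. Mki67 was at 668 and 496 CPM at P7 and 2226 and 784 CPM at E18.5, with a log2 difference of -1.39 that was not called.

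The P1 mice had 13 and 9 cycling cells. P1 against E18.5 gave 0 calls in edgeR (972 at an unadjusted p under 0.05, 7.42%), 510 in DESeq2 and 0 in limma. Leaving out the P1 female gave 924 calls and the P1 male 100. H2-K1 was at 506 and 381 CPM at P1 against 54.9 and 53.5 CPM, and Stmn2, a microtubule regulator, at 250 and 603 against 46.9 and 26.0 CPM. Gadd45g, a growth arrest and stress gene, had 0 reads in both P1 mice and 180 and 168 CPM at E18.5. The counting interval of its reads, pooled over both mice, gave a lower bound of 863-fold lower. Egln3, a hypoxia-induced prolyl hydroxylase, also had 0 reads at P1, with a lower bound of 361-fold lower on the same interval. Egln3 belongs to a list of birth genes drawn from earlier results on these samples. The median over all genes was -0.16. P7 against P1 gave 0 calls in edgeR (1287 before adjustment, 9.82%), 613 in DESeq2 and 0 in limma, and in edgeR 1207 without the P1 female and 79 without the P1 male. Pbk, a mitotic kinase, was at 744 and 550 CPM at P7 and 120 and 108 at P1. Tkt, the transketolase of the pentose phosphate path, was at 71.2 and 75.5 against 376 and 247 CPM. Neither overlapped, which was a condition for naming them.

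Under hyperoxia edgeR called 0 genes in the cycling cells, DESeq2 114 and limma 0, and edgeR called 4 and 2 without the P1 female and the P1 male. Before adjustment 339 genes (155 higher and 184 lower, 2.59% in all) had a p under 0.05 in edgeR. Of 14 p53 target genes 13 were higher, with a median log2 difference of 1.96 against 0.00 over all genes. That list was already known to be high under hyperoxia in these samples, so its direction is not independent evidence.

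Cdkn1a, the p53 target and CDK inhibitor p21, was at 3356 and 2800 CPM under hyperoxia and 517 and 1052 CPM in normal air. Both hyperoxia mice were above both controls, by 1.97 ± 0.48 on the log2 scale (edgeR quasi-likelihood adjusted p = 1). At 50000 reads, 97.2% and 80.0% of the cycling cells had a read of Cdkn1a under hyperoxia, against 61.8% and 82.4% in normal air. The noncycling cells stood at 2309 and 3358 CPM under hyperoxia and at 208 and 212 CPM in normal air, so that in normal air at P7 the cycling cells held more Cdkn1a than the noncycling cells in both mice. The interaction was -1.66 on the log2 scale and was not called. Bax, a pro-apoptotic p53 target, was at 473 and 437 CPM against 91.5 and 146 CPM, and Phlda3, an inhibitor of AKT signalling, at 378 and 435 against 61.8 and 179 CPM. Their hyperoxia and control mice did not overlap, which for Cdkn1a and Bax was also a condition of the choice by small p.

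Other genes with a small unadjusted p under hyperoxia were also not called. Mmrn2, an endothelial matrix protein that binds CD93, was at 382 and 458 CPM against 90.1 and 84.1 CPM, and Sulf2, a heparan sulfatase, at 72.2 and 94.9 against 1.55 and 6.93 CPM. H2-K1 was at 201 and 307 CPM against 900 and 918 CPM, Irf1, an interferon-responsive transcription factor, at 105 and 56.1 against 214 and 391 CPM, and Aplnr at 72.3 and 119 against 423 and 219 CPM. In each of these 5 genes the groups did not overlap, which was a condition for naming them and is no further support. The share of all genes without overlap was not counted. The cycle genes gave 37 of 52 higher for G2/M, with a median of 0.13, and 18 of 41 for S phase, with a median of -0.04, and none was called.

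Whether hyperoxia acted differently on cycling and noncycling cells was tested as an interaction. edgeR called 0 of 15178 genes, with 316 (2.08%) under 0.05 before adjustment, DESeq2 92 and limma 0. Lyve1 was at 2901 and 2554 CPM in the cycling cells under hyperoxia against 1117 and 801 CPM in normal air, and at 3937 and 3566 against 825 and 732 CPM in the noncycling cells, an interaction of -0.73 on the log2 scale that was not called. Aspm was at 185 and 357 CPM against 111 and 111 CPM in the cycling cells, and Ikbkb, a kinase of the NF-κB path, at 84.4 and 86.9 against 39.8 and 38.0 CPM, where the noncycling cells had 47.3 and 52.5 against 95.3 and 94.5 CPM.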

How the data were processed

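Read counts per gene were deposited for 2931 single endothelial cells; per the submitters' processing notes the tools were STAR 2.5.2b and HTSeq 0.10 and the genome build GRCh38. That is a human build and the samples are mouse, so the build is not settled here, and gene positions are those of GENCODE M21 on GRCm38. The authors' deposited cell table holds the subtype labels, which matched the sample labels in all 2931 cells; per the labels the same table's other columns describe each cell and were not used as measurements. The Proliferative EC and the gene lists were chosen with earlier results of these data known.

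Counts were summed per mouse over the Proliferative EC. The 8 mice with at least 8 such cells (both mice of E18.5, P1, P7 and P7 hyperoxia) entered 1 model in edgeR 4.0.16 (trimmed mean of M values, its default expression filter, quasi-likelihood F test, Benjamini-Hochberg adjustment, adjusted p under 0.05), and the same model with a mouse term tested interactions with the noncycling cells. DESeq2 1.42.0 and limma 3.58.1 on log2(mean CPM + 1) were alternatives, with R 4.3.3. The scripts were tested on simulated counts. For detection and scores each cell was thinned to 50000 reads, which left out 11 cells, none of them Proliferative EC. Named genes are the called ones with at least 50 CPM in the higher group, detection in 25% or more of its cells and mice that do not overlap, or else the 5 per direction with the smallest p under the same filters, plus the 3 members of each list with the highest level, the vessel markers needed to show which cells carry them, and against noncycling cells the 10 largest ratios; a few listed members outside the first 3 are named to give a list's exceptions, after their values were seen. The values of 2 genes are not reported here. Same-sex mice correlated in their deviations from the group means by 0.004 to 0.0933, so sex was not used as a pair.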

Additional observations from a re-analysis of the deposited data

How the results depend on the processing

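Counts of genes past the threshold depended on the tool and on single mice, and the cause was not tested. DESeq2 called 510 genes at P1 against E18.5, 613 at P7 against P1, 198 at P7 against E18.5, 114 under hyperoxia, and 53 and 92 in the age and hyperoxia interactions. Without the expression filter the first 4 were 113, 93, 98 and 10. Cells of the CD31 gate alone gave 1 at P1 against E18.5 and 3 at P7 against E18.5, cells thinned to 50000 reads 4 and 21 and 1 in the age interaction, and removal of cells rich in other lineages (chosen after seeing the data) 3 at P7 against E18.5. Leaving out each mouse in turn gave 0 to 924, 0 to 1207, 0 to 92 and 0 to 4 calls in the 4 comparisons and 0 in both interactions. With sex as the replicate block the counts were 1, 0, 5 and 0; the mice share only their sex, so this is no pairing. Of the single-gene values over all alternatives 811 kept their side of the threshold, 116 passed it, 29 no longer did and 0 changed direction. The hyperoxia share difference turned from -3.74 to 0.41 percentage points when cells were counted by markers, and was -4.25 to -3.23 with each mouse left out. Genes 2-fold lower than noncycling cells numbered 43 against all noncycling subtypes, 0 with 10 CPM added, and 7 to 20 with a mouse left out. The reads-per-cell ratio was 0.0882 against all noncycling subtypes and 0.10 to 0.19 with a mouse left out. On the vessel marker lists alone 88.2% of cells were nearest to embryonic or Car4- labels, where noncycling cells recovered their own label in 71.9%. The P1 mice had the fewest cells of the 8, 13 and 9.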

Other observations

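Cells with cycling markers were not confined to the label. At 50000 reads 508 cells had a read of at least 2 of Mki67, Top2a and Cdk1, of which 365 were labelled Proliferative EC, 10 Proliferative venous EC and 133 (26.2%) carried other labels. Lymphatic EC held the highest share among the labels counted outside the proliferative ones, 28 of 82 cells (34.1%), with 10 of 13 in the male and 7 of 26 in the female at P1. In Nonproliferative embryonic EC it was 39 of 311 (12.5%), in Venous EC 14 of 201 (6.97%), in Early Car4- capillaries 40 of 837 (4.78%) and in Late Car4- capillaries 4 of 622 (0.643%). A difference between lymphatic and blood endothelium in this respect was not tested.

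Some noncycling cells had as high a share of S phase genes with a read as the median Proliferative EC, 139 of 2520 cells. By mouse this was highest in the female hyperoxia mouse, 29 of 231 cells, and lowest at P21, with 1 of 348 and 0 of 352. These are scores at equal depth and not calls of cycling.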
